A study of Mus musculus with 3 samples.

Results

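The complement and tissue factor genes described here are 8 of the 21983 genes in the deposited count table: the complement components C3, C4b and Cfb, the complement inhibitors Cfi, Serping1 and Cd55, the coagulation initiator F3 and its inhibitor Tfpi. They were picked by symbol because C4b and F3 stood out in the NEC library, so the values in that library chose the set, and every value of the members below is a description with no test. All 8 symbols were found, and all 8 had at least 1 CPM (the read count scaled to library size by TMM) in 1 or more libraries.

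RNA-seq was made from intestine of wild-type mouse pups in 3 groups with 1 library each. Control pups were fed by the dam without hypoxia or cold and received PBS. NEC pups went through a model of necrotizing enterocolitis, a bowel disease of the newborn: over 96 h they were gavaged every 4 h with 40 µl of 33% formula and, every 12 h, were put in 99.9% nitrogen for 100 s and then kept at 4 °C for 10 min; they also received PBS. PCI34051+NEC pups went through the same model and were also fed PCI34051, an inhibitor of the deacetylase HDAC8, at 10 mg/kg per day for 5 days. Formula, hypoxia and cold came together, so their parts cannot be told apart. Strain, sex, exact age, and whether pups were pooled are not in the labels used here.

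Complement is a cascade of serum proteins that tags surfaces and damaged cells. The classical pathway starts with C1, whose proteases cut C4 and C2, the alternative pathway runs through factor B, and both meet at C3, while C1 inhibitor (Serping1), factor I (Cfi) and decay-accelerating factor (Cd55) hold the cascade back at different steps. Tissue factor (F3) is the membrane receptor that starts coagulation by binding factor VII, and tissue factor pathway inhibitor (Tfpi) blocks that complex together with factor X. The liver makes most circulating complement, but gut epithelium, stromal cells and macrophages make complement locally, and tissue factor is normally held on cells around vessels and in the connective tissue.

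Total counts were 15076413 for control, 10650638 for NEC and 16497580 for PCI34051+NEC, so 3 counts, the limit that a count of 0 allows, came to 0.189, 0.274 and 0.197 CPM. With 1 library per group the spread between animals is unknown, so there is no test, and a difference below is between libraries and is not shown to be one between conditions. Intervals are exact 95% intervals that cover counting error only, and PCR copies of a molecule may have been counted more than once. The NEC library stood apart from both others in more than the members: mitochondrially encoded genes took 32.4% of its counts against 4.88% and 3.73%. The Y-linked genes Eif2s3y, Ddx3y, Kdm5d and Uty had 0, 2, 0 and 3 counts there. In control they had 999, 568, 480 and 569 counts, and in PCI34051+NEC 1134, 753, 345 and 548. Sex therefore cannot be told apart from the model or the inhibitor in the comparisons that use the NEC library. All 10 epithelial markers checked, such as Vil1 and Cdx2, had counts in every library, which checks the labelled tissue. Where 3 values stand in a row below, their order is control, NEC, PCI34051+NEC. Because tissue was sequenced in bulk, fewer cells of a type and less RNA per cell cannot be told apart.

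The complement components did not share 1 pattern: C3 and C4b were highest in the NEC library, and Cfb was lowest there. C3, the protein on which all complement pathways converge (ENSMUSG00000024164, chromosome 17, 57203970 to 57228136, minus strand, mm10), was at 61.9 CPM in the control, 306 CPM in the NEC and 81.6 CPM in the PCI34051+NEC library. The NEC library alone was high, and the other 2 lay close together. C3 was 4.95-fold higher in NEC than in control (4.61 to 5.32), 3.75-fold lower in PCI34051+NEC than in NEC (3.52 to 4.01), and 1.32-fold higher in PCI34051+NEC than in control (1.21 to 1.44).

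C4b, which the C1 protease complex cuts to build the classical C3 convertase (ENSMUSG00000073418, chromosome 17, 34728380 to 34743882, minus strand), was at 8.56 CPM in control, 131 in NEC and 4.93 in PCI34051+NEC, from 136, 1434 and 75 counts. It was low in both libraries other than NEC. C4b was 15.3-fold higher in NEC than in control (12.8 to 18.4), and 26.6-fold lower in PCI34051+NEC than in NEC (21.1 to 34.0). In PCI34051+NEC it was below control, by 1.74-fold (1.30 to 2.33). Its near copy C4a had no entry in the deposited counts. Of all 150-base windows of the longest C4b transcript, 8.26% occur unchanged in C4a transcripts, so reads there may not have been assigned.

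Cfb, factor B, the protease of the alternative pathway convertase (ENSMUSG00000090231, chromosome 17, 34856374 to 34862518, minus strand), was at 3.59, 1.46 and 5.06 CPM, from 57, 16 and 77 counts. It was lowest in the NEC library, at 2.45-fold below control (1.39 to 4.58), and 3.46-fold higher in PCI34051+NEC than in NEC (2.0 to 6.36). On the log2(CPM + 1) scale used for calls, which understates differences of low genes, the first of these was -0.90 and missed the 2-fold threshold. The level of Cfb itself is uncertain. The annotated gene Gm20547 overlaps it on the same strand and holds 80.7% of its 150-base windows, and Gm20547 was listed at 0 counts in all 3 libraries. Reads that fit both genes may have been left out.

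The 250 bases before the annotated start of C3 are shown for comparison with those of F3, the other gene high in NEC for which RefSeq gave a window (GRCm38.p6, the build mm10). For C3 this is chr17:57228137-57228386, minus strand, and capitals mark a match to the C/EBP letters TTGCNNAA, 45 bases before the start.
C3: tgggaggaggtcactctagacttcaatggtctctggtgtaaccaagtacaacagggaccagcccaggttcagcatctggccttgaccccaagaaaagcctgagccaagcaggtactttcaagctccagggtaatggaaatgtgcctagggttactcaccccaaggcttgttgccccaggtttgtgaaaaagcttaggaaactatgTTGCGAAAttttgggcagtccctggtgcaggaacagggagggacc
Among all 32851 RefSeq windows, from 250 bases before to 50 after a start, 10.8% held TTGCNNAA on either strand. C3 also held TATAAA, the TATA box letters, 15 bases after the annotated start, as 13.6% of windows did anywhere. A match describes letters only. C/EBP factors are named as regulators of acute phase genes, and the gene of 1 of them, Cebpd, was at 10.9, 118 and 44.1 CPM. Cebpa went the other way, at 181, 49.6 and 105 CPM. Cebpb was within 2-fold in NEC against control, at 87.0, 159 and 136 CPM. Whether any of them acted on C3 was not tested.

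The 3 complement inhibitors split as well. Serping1 was high in the NEC library, while Cfi and Cd55 were low. Serping1, which inactivates the C1 proteases and also kallikrein and factor XII (ENSMUSG00000023224, chromosome 2, 84765387 to 84775444, minus strand), was at 18.9, 98.5 and 25.1 CPM in control, NEC and PCI34051+NEC. Its profile followed that of C3: 5.20-fold higher in NEC than in control (4.57 to 5.93), 3.93-fold lower in PCI34051+NEC than in NEC (3.49 to 4.42) and 1.33-fold higher in PCI34051+NEC than in control (1.14 to 1.55).

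Cfi, factor I, the serum protease that cuts C3b and C4b (ENSMUSG00000058952, chromosome 3, 129835884 to 129875332, plus strand), was at 24.4, 5.66 and 37.0 CPM. The NEC library was lowest and the PCI34051+NEC library highest. Cfi was 4.30-fold lower in NEC than in control (3.28 to 5.72), 6.53-fold higher in PCI34051+NEC than in NEC (5.02 to 8.63) and 1.52-fold higher in PCI34051+NEC than in control (1.33 to 1.73). Cd55, the membrane-anchored protein that speeds the decay of both C3 convertases (ENSMUSG00000026399, chromosome 1, 130439027 to 130462744, minus strand), was at 79.4, 11.2 and 61.4 CPM, from 1262, 123 and 935 counts. Among the members it was furthest below control in the NEC library, 7.07-fold (5.87 to 8.58), and it was 5.47-fold higher in PCI34051+NEC than in NEC (4.53 to 6.65). Its near copy Cd55b had 0 counts in every library, and 2.25% of Cd55 windows occur in Cd55b transcripts.

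F3 and Tfpi, the initiator of coagulation and its inhibitor, stood in opposite directions. F3 (ENSMUSG00000028128, chromosome 3, 121723537 to 121735048, plus strand) was at 6.67, 105 and 4.27 CPM in control, NEC and PCI34051+NEC, from 106, 1153 and 65 counts. As with C4b, only the NEC library was high, and the PCI34051+NEC library was lowest. F3 was 15.8-fold higher in NEC than in control (12.9 to 19.5), 24.7-fold lower in PCI34051+NEC than in NEC (19.2 to 32.2) and 1.56-fold lower in PCI34051+NEC than in control (1.14 to 2.16). Tfpi, a secreted and membrane-bound Kunitz-type inhibitor (ENSMUSG00000027082, chromosome 2, 84432855 to 84476775, minus strand), was at 93.7, 23.6 and 53.9 CPM. It was highest in the control library. Tfpi was 3.98-fold lower in NEC than in control (3.48 to 4.56) and 2.29-fold higher in PCI34051+NEC than in NEC (1.99 to 2.64), and in PCI34051+NEC it stayed 1.74-fold below control (1.59 to 1.89).

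The bases before the starts of F3 and Tfpi are set side by side, since the 2 genes act on 1 step and differed in opposite directions. The windows are chr3:121723287-121723536, plus strand, and chr2:84476760-84477009, minus strand. In F3, capitals mark 2 matches to the AP-1 letters TGANTCA, 146 and 135 bases before the start, and 1 to the NF-kB letters GGNNTTTCC, 112 bases before it. In Tfpi they mark TATAAA on the reverse strand, 127 bases before the start.
F3: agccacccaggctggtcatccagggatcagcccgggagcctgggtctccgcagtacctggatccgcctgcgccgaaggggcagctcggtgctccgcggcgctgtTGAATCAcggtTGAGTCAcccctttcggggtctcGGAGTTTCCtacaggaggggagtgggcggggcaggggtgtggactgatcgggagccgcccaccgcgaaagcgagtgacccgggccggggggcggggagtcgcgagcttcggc
Tfpi: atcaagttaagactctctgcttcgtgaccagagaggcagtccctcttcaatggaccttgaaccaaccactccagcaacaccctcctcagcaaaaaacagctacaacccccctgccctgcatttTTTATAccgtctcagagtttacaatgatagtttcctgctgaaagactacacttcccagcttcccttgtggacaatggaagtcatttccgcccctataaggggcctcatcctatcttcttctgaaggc
TGANTCA stood in 7.81% of all windows and GGNNTTTCC in 5.82%. F3 also held the TATA box letters on the reverse strand, 44 bases after the start. Of the 8 members, 4 (C3, F3, Cd55 and Tfpi) had a window in the table. None of the windows of these 4 genes held the letters searched for the gamma-activated site (TTCNNNGAA), the interferon-stimulated response element, the EGR1 site (GCGNGGGCG) or the glucocorticoid response element, and that of Cd55 held none of the 8 motifs. The bases before F3 were 70.0% G or C, those before C3 52.0%, those before Cd55 64.0% and those shown for Tfpi 48.4%. The median of all windows was 52.4%. Tfpi had another annotated start, whose window (chr2:84474175-84474424, minus strand) is not shown. It was 52.8% G or C and held none of the 8 motifs.

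**Figure D1:**
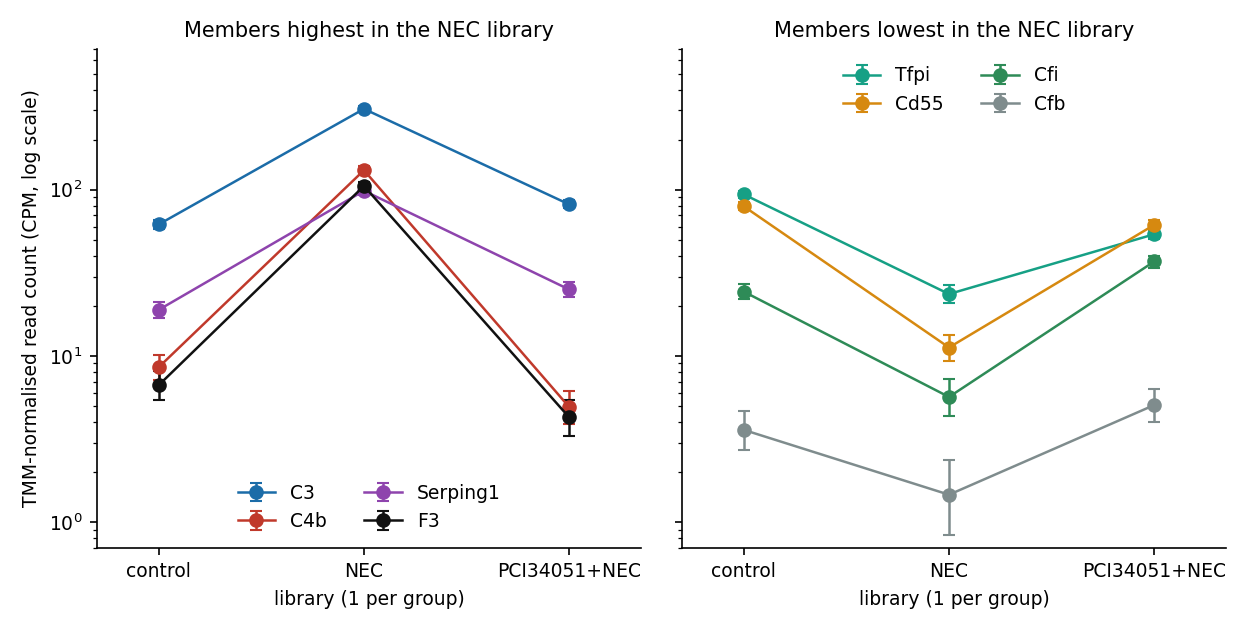
TMM-normalised read counts (CPM, log scale) of the 8 members in 1 library each of control, NEC and PCI34051+NEC. Bars are exact 95% Poisson intervals for counting error only, and lines join the values of 1 gene. C3, C4b, Serping1 and F3 (left) peak in the NEC library, at 98.5 to 306 CPM, while Tfpi, Cd55, Cfi and Cfb (right) have their minimum there, at 1.46 to 23.6 CPM.

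Set per kb of the longest annotated transcript, the order of the members' levels turned over in the NEC library. In the control, Cd55 (25.3 CPM per kb) and Tfpi (23.6) led, with counting intervals that overlapped. C3 (12.0), Cfi (11.7) and Serping1 (10.7) followed with overlapping intervals, and F3 (3.56), C4b (1.59) and Cfb (1.30) came last. In the NEC library the first 3 places went to C3 (59.6 CPM per kb), F3 (56.3) and Serping1 (55.7), whose intervals overlapped, and C4b (24.3) was next. Tfpi (5.94), Cd55 (3.59), Cfi (2.72) and Cfb (0.531) were below them. In the PCI34051+NEC library Cd55 (19.6 CPM per kb) and Cfi (17.8) came first, with overlapping intervals. F3 (2.28), Cfb (1.84) and C4b (0.916) were again the last 3. The intervals of F3 and Cfb overlapped there, as did those of C4b and Cfb in the control. Reads that fit both Cfb and Gm20547 may have been left out, so the place of Cfb in each order is uncertain.

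Ratios between 2 genes of the same library do not depend on how libraries are scaled. The count of F3 per kb relative to that of Tfpi was 0.151 in the control (0.123 to 0.184), 9.47 in the NEC (8.27 to 10.9) and 0.168 in the PCI34051+NEC library (0.128 to 0.216). Transcripts of the initiator were thus fewer than those of the inhibitor in 2 libraries and more in the NEC library. C3 relative to Cfi, whose product cuts C3b, was 1.03 (0.913 to 1.16), 21.9 (17 to 28.6) and 0.893 (0.808 to 0.988) in the same order. C1s1, the gene of the C1 protease that cuts C4, relative to its inhibitor Serping1 was 0.496 in control (0.418 to 0.589) and 0.537 in NEC (0.492 to 0.587), whose intervals overlap, and 0.251 in PCI34051+NEC (0.208 to 0.303). C3 relative to C4b was lowest in NEC, at 2.45 (2.30 to 2.61), against 7.57 in control (6.32 to 9.12) and 17.3 in PCI34051+NEC (13.7 to 22.2).

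**Figure D2:**
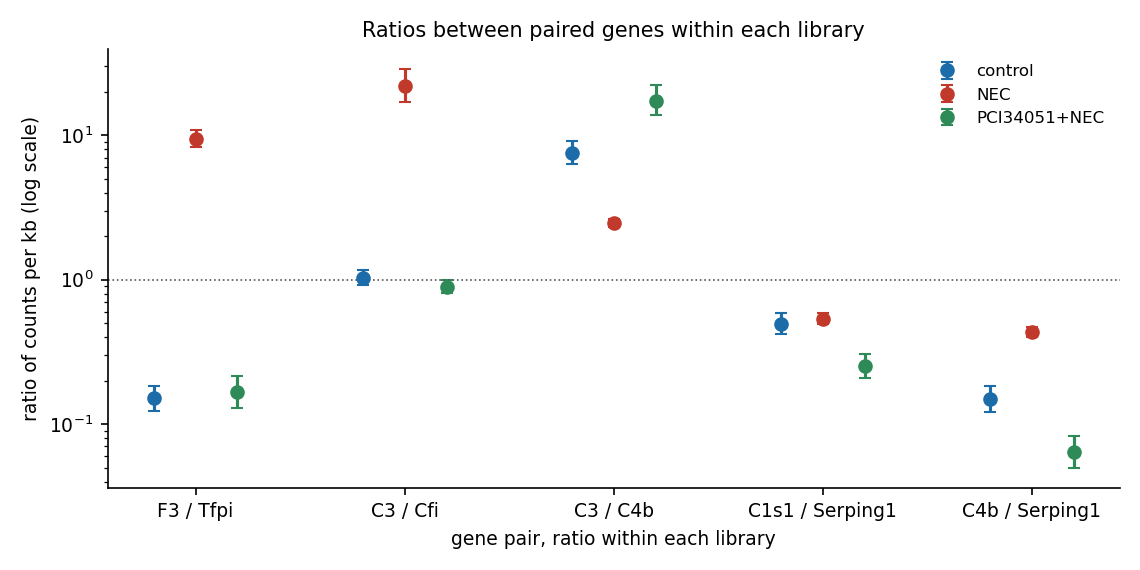
Ratio of counts per kb between the 2 genes of each pair (log scale) within the control, NEC and PCI34051+NEC libraries, with exact 95% counting intervals. The dotted line is a ratio of 1. F3 relative to Tfpi and C3 relative to Cfi are far higher in NEC (9.47 and 21.9) than in the other libraries, whereas C1s1 relative to Serping1 is alike in control and NEC.

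The comparison of NEC with control asks how the intestine of the model differs from that of dam-fed pups. Of the 8 members, 4 (C3, C4b, Serping1 and F3) were 2-fold or more higher in NEC and 3 (Cfi, Cd55 and Tfpi) were 2-fold or more lower, where 24.2% of 14627 measured genes were 2-fold higher and 22.9% 2-fold lower, 47.1% in all. The rule used this contrast, so nothing is read from the members' count. The members' median log2 fold was 0.70, with 4 values on each side of 0, and that of all measured genes was -0.03 with a standard deviation of 1.36. F3 and C4b, both with a log2 fold of 3.79, ranked 69th and 71st from the top, and Cd55, at -2.72, ranked 270th from the bottom.

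In PCI34051+NEC against NEC, which asks how pups given the inhibitor differ from those without it, 4 members (Cfb, Cfi, Cd55 and Tfpi) were 2-fold or more higher and 4 (C3, C4b, Serping1 and F3) were 2-fold or more lower, against 25.0% and 25.6% of 14410 measured genes, 50.6% in all. This comparison and that of NEC with control share the NEC library, so the members' values there enter both. C4b, with a log2 fold of -4.48, was the 8th lowest of all genes and F3, at -4.33, the 14th lowest. Tfpi had the smallest difference of the 8, 1.16, which was 0.89 with upper-quartile scaling and 0.69 after correction for GC content and transcript length. In PCI34051+NEC against control, no member was 2-fold higher or lower, where 6.55% of 13652 measured genes were higher and 6.55% lower, 13.1% in all. Log2 folds ran from -0.79 (Tfpi) to 0.58 (Cfi). The counting intervals of 7 members left out a ratio of 1, and that of Cfb, 0.988 to 2.02, did not.

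**Figure D3:**
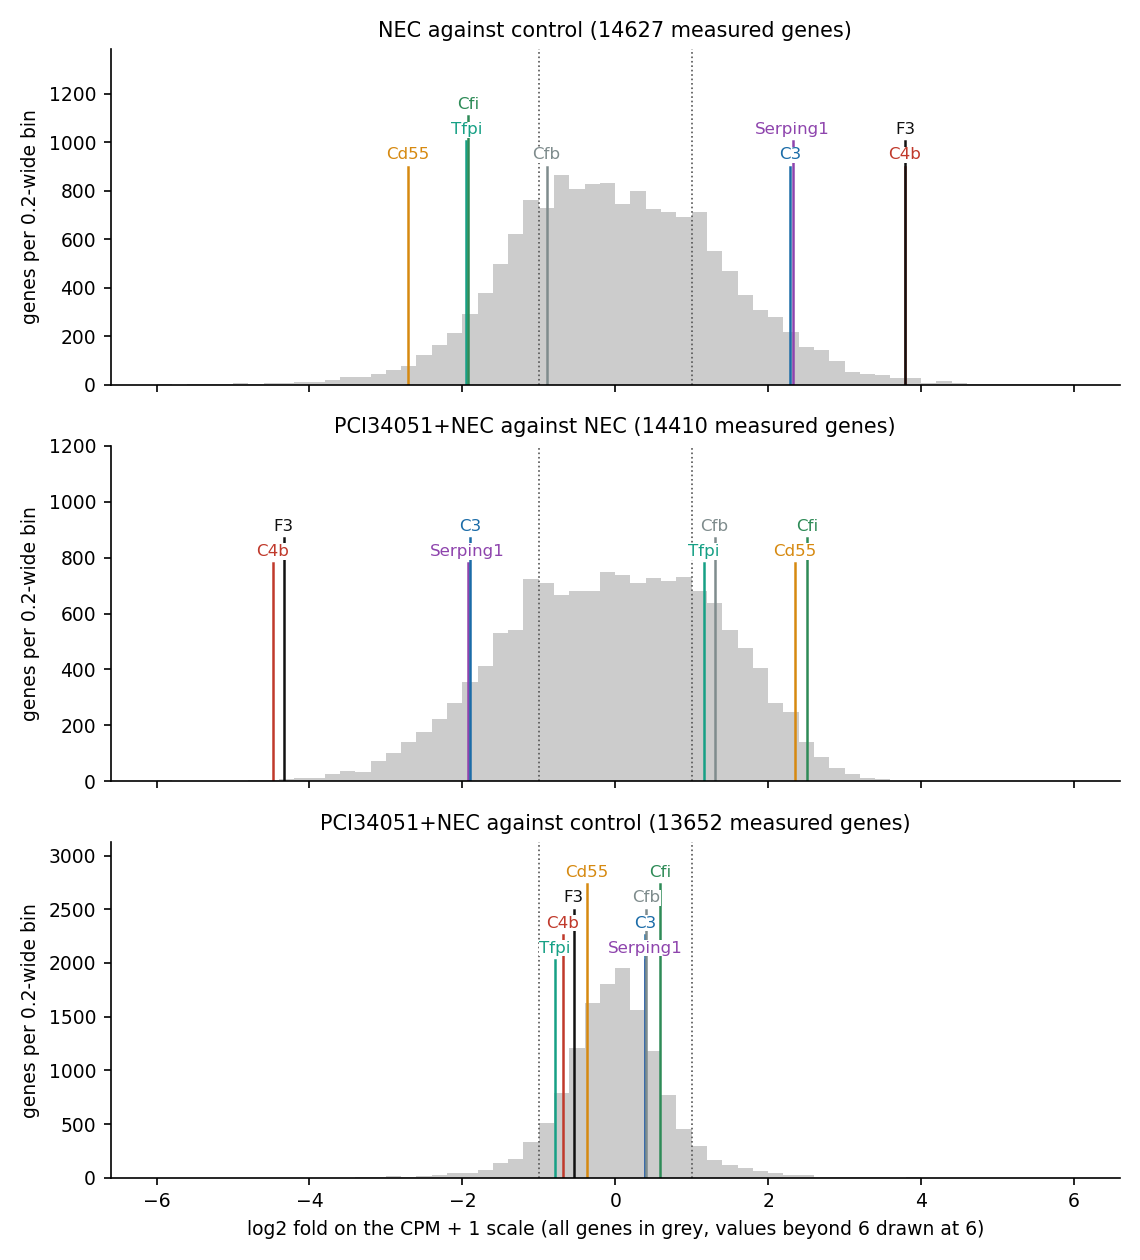
Distribution of log2 folds on the CPM + 1 scale over all measured genes (grey, genes per 0.2-wide bin) in the 3 comparisons, with a coloured line at each member. Dotted lines mark 2-fold. C4b and F3 lie in the far right tail of NEC against control, at 3.79, and in the far left tail of PCI34051+NEC against NEC, whereas all 8 members lie inside the dotted lines in PCI34051+NEC against control.

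Markers of several cell types differed between the same libraries, and their part in the members' values was not tested. Beside the counts that follow, 24.2% of all measured genes were 2-fold higher in NEC than in control and 22.9% lower. In NEC against control, 5 of 10 epithelial markers were lower by 2-fold and 1 was higher, with summed levels of 11821, 6033 and 16537 CPM in control, NEC and PCI34051+NEC. Of 8 measured fibroblast markers, 6 were 2-fold higher and none 2-fold lower, with sums of 778, 2713 and 731 CPM. The sums of 6 mesothelial markers were 51.8, 192 and 52.8 CPM, those of 8 smooth muscle markers 1273, 10636 and 1292 CPM, and those of 6 enteric neuron markers 114, 792 and 107 CPM. These 4 lists were highest in NEC, as C3, C4b, Serping1 and F3 were. Other stromal and nerve lists were not: villus-tip and subepithelial fibroblast markers summed to 443, 122 and 310 CPM, with 4 of 7 genes 2-fold lower in NEC and 1 higher, and enteric glia markers to 337, 249 and 741 CPM, with 3 of 5 measured genes 2-fold higher and Gfap at 0 in NEC. The ratio of NEC to control was 3.49 for the fibroblast sum, 3.69 for the mesothelial, 8.35 for the smooth muscle and 6.95 for the enteric neuron sum. Endothelial markers, of the cells that carry much of the body's Tfpi, had sums of 231, 338 and 251 CPM, with 4 of 10 genes 2-fold higher in NEC and none 2-fold lower.

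Hepatocyte and macrophage markers had lower sums in NEC than in control, and platelet and neutrophil markers higher. Of 12 hepatocyte genes, 9 were at least 2-fold higher in NEC and 1 (Ttr) 2-fold lower, with sums of 398, 269 and 238 CPM, which Ttr (353, 57.6 and 209 CPM) led in the control and PCI34051+NEC libraries, and none at 0. Alb, the serum albumin gene, was at 9.31, 100.4 and 0.394 CPM, and so was highest in the same library as C3 and C4b. Macrophage markers had sums of 492, 139 and 212 CPM, which Csf1r (406, 58.8 and 160 CPM) led in every library. Of 8 genes, 2 (Cd163 and Mrc1) were 2-fold higher in NEC and 3 (Csf1r, Cd68 and Cx3cr1) lower. Their median log2 fold was -0.92, and Cd163 was 55.6-fold higher. Platelet markers summed to 9.38, 46.3 and 12.8 CPM. Of the 4 that were measured in NEC against control, 2 (Itga2b and Pf4) were 2-fold higher in NEC and 1 (Gp9) lower. Itga2b was at 3.27, 32.9 and 6.57 CPM, and Gp9 at 3.33, 0.731 and 2.10 CPM. Neutrophil markers summed to 0.692, 5.57 and 3.22 CPM, with 4 of 7 genes at 0 in the control and 3 in PCI34051+NEC. Only 2 of these 7 were measured in NEC against control, both through NEC alone, so the neutrophil sums lie near the floor. The part of these cells in the members' values was not tested either.

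The genes whose profile over the 3 libraries lay nearest to C4b and F3 were largely shared. Likeness was the distance between log2(CPM + 1) values centred on each gene, over 3 libraries and 10527 genes with at least 10 CPM in 1 of them. The 5 nearest to C4b were F3, the calcium channel gene Cacna1g, the synuclein gene Sncg, the sodium pump regulator Fxyd1 and the nucleolar protein gene Nop56, at distances of 0.119 to 0.227. The 5 nearest to F3 were Sncg, Fxyd1, Nop56, C4b and Cacna1g, at 0.0889 to 0.179. Cacna1g was at 8.68, 150 and 5.32 CPM, and Sncg at 3.96, 73.9 and 2.50 CPM. With 3 libraries many genes can share such a profile, and the values are given as a description.

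C4b, Cfb and C2 lie within 1 stretch of the class III region of the major histocompatibility complex. Of the 21 genes with an entry in the deposited counts, from 10 before C4b to 10 after it, 19 were measured. C4a is not among them, since it had no entry. Without the members C4b and Cfb, 7 of 17 were higher in NEC than in control by 2-fold and 2 lower, where 24.2% and 22.9% of all measured genes were, with a median log2 fold of 0.76. Tnxb, the tenascin X gene that ends next to C4b on the opposite strand, was at 23.3, 373 and 20.4 CPM, 16-fold higher in NEC (14.4 to 17.9). Further genes higher by 2-fold were Ager, a receptor for glycated proteins (57.5-fold), Egfl8 (14.2-fold), Stk19 (3.67-fold), Dxo (2.88-fold), Zbtb12 (2.34-fold) and Skiv2l (2.32-fold). C2, the complement protease that pairs with C4b, was lower, at 118, 31.1 and 72.1 CPM, as was the lipid enzyme gene Agpat1 (3.05-fold). The 2 partners of the classical convertase therefore differed in opposite directions in these libraries. C2 shares 48.3% of its windows with Gm20547, so its level carries the same doubt as that of Cfb.

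**Figure D4:**
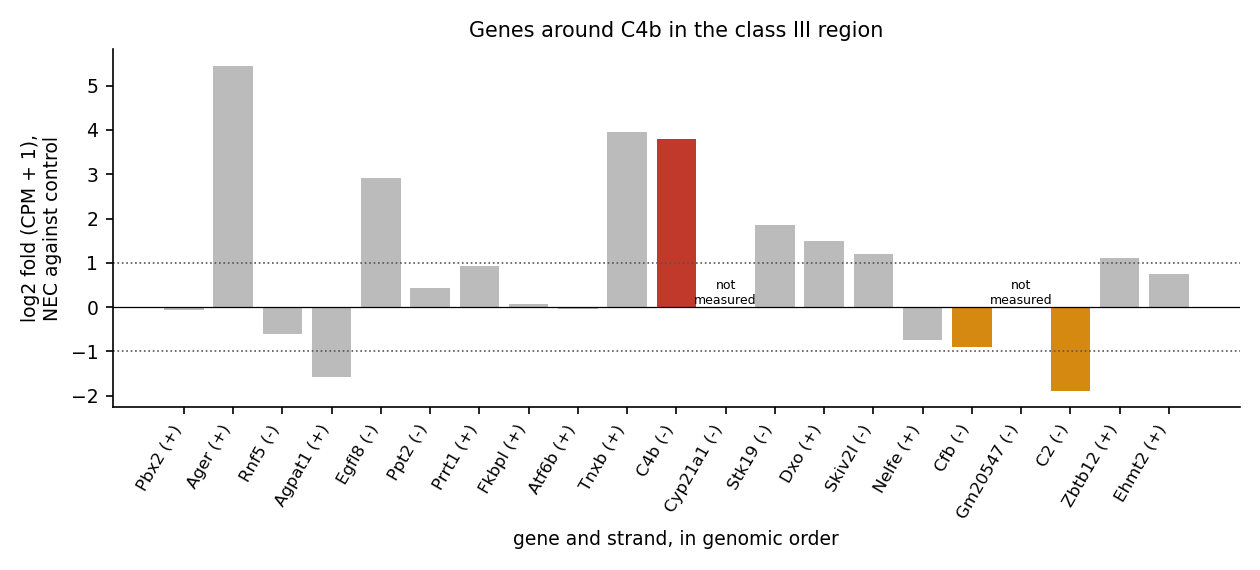
Log2 fold (CPM + 1) of NEC against control for the 21 genes around C4b that had an entry in the deposited counts, in genomic order, with the strand of each gene. C4b is red, Cfb and C2 are orange, and dotted lines mark 2-fold. C4b and its neighbour Tnxb stand at 3.79 and 3.94, while Cfb and C2 are below 0.

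The other complement genes came from lists of the pathway and not of how genes moved, and those measured were more often higher than lower in NEC. Because 1 CPM in either library was enough, some entered only through NEC, such as Masp1 and C8a. Others, such as C9 and Itgb2, entered only through control. The median gene in NEC against control, C1s2 (0.378 and 1.19 CPM), entered only through NEC. The counts and medians rest on this filter and are a description. Of 37 measured genes, 15 were higher than in control by 2-fold and 7 lower, where 24.2% and 22.9% of all measured genes were. Their median was 0.67. With the inhibitor, against NEC, 3 of 33 were higher and 17 lower, where 25.0% and 25.6% of all measured genes were. The median was -1.04, where the median of all genes was 0.01. The same shares stand beside the counts of each list below. Among the 12 measured genes that start the classical and lectin pathways, 6 were higher and 1 (C2) lower in NEC. C1s1 was at 15.7, 88.2 and 10.5 CPM, 5.63-fold higher in NEC than in control (4.89 to 6.50). C1ra, its partner protease, was at 7.55, 25.5 and 5.98 CPM. Masp1, a lectin pathway protease gene, was at 0.503, 6.30 and 0.591 CPM, and the ficolin gene Fcna at 2.14, 12.0 and 1.64 CPM. C1qa, C1qb and C1qc, the subunits of the recognition protein that macrophages make, were within 2-fold, at 24.5 and 45.3, 15.6 and 28.1, and 18.4 and 20.2 CPM in control and NEC.

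Of the alternative pathway and terminal components, 3 of 6 measured (Cfp, C7 and C8a) were higher and 1 (C9) lower. Cfp, properdin, which stabilises the alternative convertase, was at 8.31, 64.9 and 4.99 CPM, 7.82-fold higher in NEC than in control (6.48 to 9.49). C8g was at 5.54, 6.03 and 8.21 CPM. Of 11 regulators, 4 were higher and 2 lower. The membrane regulators went both ways. Cd59a, which blocks the membrane attack complex, was at 19.4, 125 and 33.7 CPM, Cd46, a cofactor for factor I, at 8.18, 33.8 and 10.2 CPM, and Susd4 at 4.40, 16.3 and 5.06 CPM. Cr1l, the broadly expressed mouse regulator Crry, was lower by 2.05-fold (1.78 to 2.36), at 51.3, 25 and 53.9 CPM. Cpn1, the carboxypeptidase that trims the anaphylatoxins, was 26.0-fold lower in NEC (18.6 to 37.6), at 83.2, 3.20 and 22.1 CPM. Of 8 receptor genes, C5ar1 (0.378, 5.66 and 1.05 CPM) and Itgam (1.32, 9.04 and 1.77 CPM) were higher, and Itgax (6.42, 1.0 and 2.17 CPM), Itgb2 (7.36, 0.731 and 1.91 CPM) and Cr2 were lower.

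The other coagulation genes showed no common direction. Of 33 measured, 11 were higher in NEC by 2-fold and 10 lower, against 24.2% and 22.9% of all measured genes. Their median was -0.19. Here too some entered only through NEC, such as F13a1, and others only through control, such as Tfpi2. The counts and medians are therefore a description. With the inhibitor, against NEC, 9 were higher and 13 lower, against 25.0% and 25.6% of all measured genes, with a median of -0.05. Of 12 coagulation factor genes, 3 were higher and 4 lower in NEC. F10, factor X, the substrate of the tissue factor complex and a target of Tfpi, was at 140, 17 and 149 CPM, 8.22-fold lower in NEC than in control (7.07 to 9.59). F7, the partner of tissue factor, had 5, 0 and 3 counts, too few for a fold. F13a1, the fibrin-crosslinking factor that macrophages and platelets carry, was at 0.755, 10.3 and 1.71 CPM. The fibrinogen chain gene Fgg was at 1.76, 11.7 and 0.263 CPM, and the kininogen gene Kng2 at 15.2, 1.74 and 7.69 CPM.

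Of 8 anticoagulant genes, 4 were lower in NEC and 1 higher, with a median of -0.80 that depended on the settings: it was -0.31 with TMM factors set without the 50 most abundant and the mitochondrial genes, -0.26 with no filter on low genes, -0.44 with a pseudocount of 4 and -1.84 over genes with at least 5 CPM. Tfpi2, the paralogue of Tfpi, was 24.7-fold lower (12.9 to 54.6), at 20.3, 0.822 and 3.42 CPM. Proz, the protein Z gene, was at 57.8, 9.22 and 24.4 CPM, and the thrombomodulin gene Thbd at 14.3, 3.29 and 9.99 CPM. Procr, the endothelial protein C receptor gene, was the 1 that was higher, at 2.58, 8.13 and 4.60 CPM. In PCI34051+NEC against control, 3 of 7 anticoagulant genes (Tfpi2, Proz and Serpinc1) were at least 2-fold lower and none higher. Of all measured genes, 6.55% were lower and 6.55% higher. Tfpi2 was 5.95-fold lower (4.43 to 8.14). Of 10 fibrinolysis genes, 7 were higher in NEC and 1 lower, where 24.2% and 22.9% of all measured genes were. Their median was 1.41, which was 0.66 with a pseudocount of 4 and 0.67 over genes with at least 5 CPM. Of the genes higher in NEC, some passed the filter only through that library. These were Plg (0.440 CPM in control and 4.93 in NEC), Cpb2 (0.315 and 2.47) and Serpinb2 (0 and 1.00). The count and the median rest on this filter and are a description. The higher genes also included the plasminogen activator gene Plat (3.78, 30.8 and 8.15 CPM) and its inhibitor Serpine2 (14.2, 99.7 and 18.2 CPM). Plau, urokinase, was lower (14.5, 5.75 and 2.23 CPM), whereas its receptor gene Plaur was highest in PCI34051+NEC (7.87, 24.7 and 48.1 CPM). The receptor gene F2rl1, through which the tissue factor complex signals, was at 210, 50.9 and 278 CPM, 4.12-fold lower in NEC than in control (3.77 to 4.52), while the thrombin receptor gene F2r was at 11.5, 15.2 and 15.1 CPM.

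**Figure D5:**
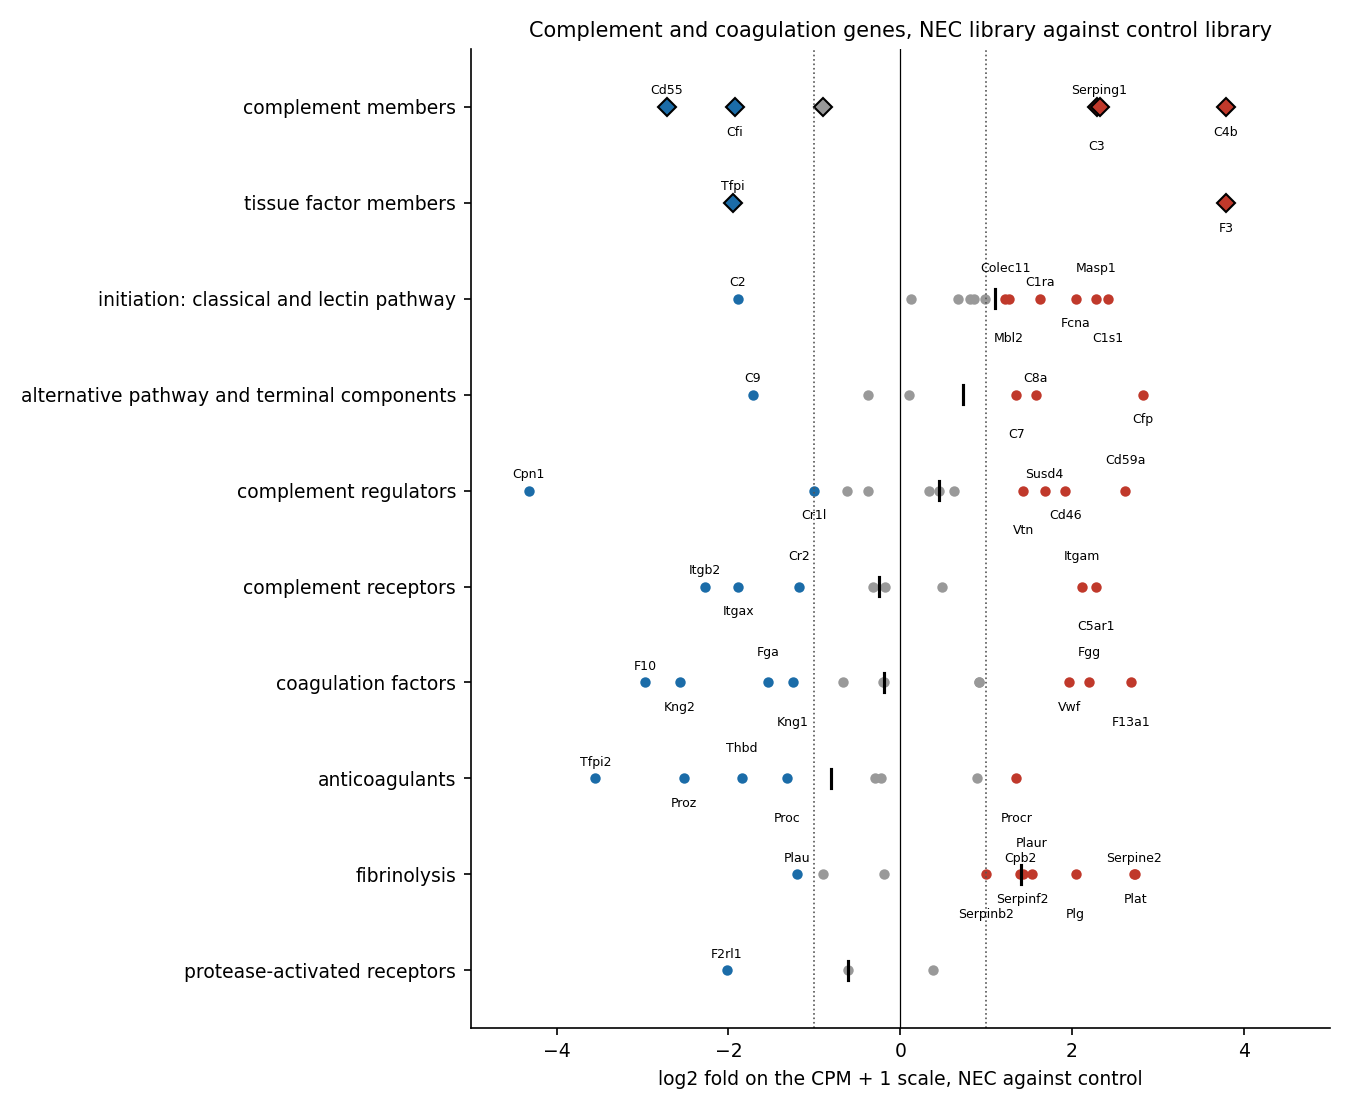
Log2 fold (CPM + 1) of NEC against control for the 8 members (diamonds) and the measured genes of 8 complement and coagulation lists (circles), red at 2-fold or more higher, blue at 2-fold or more lower, grey between. Black ticks are list medians, which run from -0.80 (anticoagulants) to 1.41 (fibrinolysis), and members lie on both sides, from Cd55 at -2.72 to F3 at 3.79.

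Of 15 genes of transcription factors known to act on the members, 3 were at least 2-fold higher in NEC than in control and 5 lower. The shares over all measured genes were 24.2% and 22.9%. Cebpd was 10.8-fold higher (9.24 to 12.8). Fos, a subunit of AP-1, was at 6.73, 32.5 and 70.9 CPM, and so was highest in PCI34051+NEC, where F3 was lowest. Jun, also a subunit of AP-1, was lowest in NEC, at 261, 73.0 and 161 CPM. Cebpa, Nr3c1 (78.7, 31.5 and 103 CPM) and Hnf4a (517, 196 and 347 CPM) were likewise lower in NEC than in control. Egr1 was at 8.24, 34.5 and 7.29 CPM. Which of these factors acted on a member was not tested.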

How the data were processed

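Raw counts by gene symbol were deposited for the 3 libraries in 1 table. Reads were placed on mm10, which the submitters' processing notes name. RNA was extracted with TRIzol and sequenced as 150 bp paired-end reads, per the labels' protocols. Neither aligner, annotation nor strand setting is stated in the labels, so reads of overlapping or antisense genes cannot be told apart. The third column and the label of the PCI34051+NEC sample are spelled differently, and they were joined because no other column names an inhibitor. Of 21983 symbols, 21926 matched GENCODE M21, which gave coordinates and lengths. Bases before gene starts came from RefSeq (GRCm38.p6).

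Counts were scaled with TMM (edgeR 4.0.16, R 4.3.3; factors 1.05, 1.03 and 0.923). Log2 folds used CPM plus 1. Fold ratios are plain CPM ratios with exact conditional binomial intervals. A gene was measured at 1 CPM or more in 1 of the 2 libraries and called at a 2-fold difference. The procedure was tested on simulated counts with known folds, in which only a small set of genes differed. In these data 47.1% of measured genes were 2-fold apart in NEC against control, so that simulation does not test the scaling here. The members and lists were chosen with earlier results of these data known, and the motif letters with the sequences in view. Genes named outside the members were, per list, up to 4 with the largest difference in NEC against control at 5 CPM or more, the neighbours of C4b that were 2-fold apart, and the 5 genes nearest to C4b and to F3. A gene that this rule names is not reported here. F7, C7, C8a, C9, C1ra, C1qa, C1qb, C1qc, Cr1l, Cr2, Alb, Ttr and Serpinc1 were chosen after their values were seen. So were C1s2, Cebpa, Cebpb, Jun, Nr3c1, Hnf4a, Csf1r, Cd68, Cx3cr1, Cd163 and Mrc1. Plg, Cpb2, Serpinb2, Itga2b, Pf4 and Gp9 were also chosen in that way. Alternatives were DESeq2 1.42.0 size factors, other scalings, pseudocounts, filters and thresholds, thinning, and correction for GC content and length.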

Additional observations from a re-analysis of the deposited data

How the results depend on the processing

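Over 200 log2 folds of members recomputed under other scalings, pseudocounts, thinning and correction for GC content and length, 196 kept their direction and their side of 2-fold, and none changed sign. The other 4 were Cfb in NEC against control (-1.16 with a pseudocount of 0.25), Cfb in PCI34051+NEC against NEC (0.73 with a pseudocount of 4) and Tfpi in that comparison (0.89 with upper-quartile scaling and 0.69 with that correction). Of 279 medians of gene lists recomputed in the same way or with other filters, 219 stayed within 0.2 of the reported value. The 1.41 of the fibrinolysis genes in NEC against control was 2.07 with a pseudocount of 0.25. In PCI34051+NEC against control, 2 members were lower at a 1.5-fold threshold, which counted 32.6% of all genes, and a pseudocount of 4 gave 7.26% of all genes 2-fold apart. Upper-quartile scaling moved the median of all genes by 0.14, -0.27 and -0.13 in the 3 comparisons (NEC against control, PCI34051+NEC against NEC, PCI34051+NEC against control), and total counts by -0.14 and -0.18 in the last 2. The share of called genes that were higher was 49.3% in PCI34051+NEC against NEC and 37.9% with upper-quartile scaling. In PCI34051+NEC against control it was 50%, and 37.5% with upper-quartile scaling, 33.5% with total counts and 64.8% with a pseudocount of 4. Low counts limit Cfb, with 16 in the NEC library. No paired analysis was possible because each group has 1 library.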
